A study of Mus musculus with 10 samples.

Results

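The genes described here encode the machinery that fills, docks, primes, fuses and retrieves synaptic vesicles. They were taken as a list of 43 symbols, all 43 of which were rows of the 24982 in the count table, and they were followed, under the capital symbols of the table, in the dentate gyrus of mice with and without Fndc5. Fndc5 encodes the membrane protein that is cleaved to the secreted hormone irisin. The dentate gyrus is the hippocampal field of granule neurons, and it was micro-dissected from male mice aged 10 weeks. There were 5 wild types and 5 knockouts, both on a C57BL/6 background, the knockouts with a global disruption of Fndc5, and 1 mouse gave 1 library of poly(A) RNA. The labels name no further allele, treatment or shared litter for either group and do not say which exons of Fndc5 were removed.

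Release of transmitter rests on a SNARE complex, in which a vesicle protein (synaptobrevin, VAMP1 or VAMP2) zips together with 2 proteins of the plasma membrane (syntaxin, here STX1A, and SNAP25). Some synaptotagmins, though not all, sense calcium and trigger fusion, and complexins clamp and promote it. Munc13 proteins (UNC13A, UNC13B and UNC13C) prime the vesicle, and the scaffolds Bassoon, Piccolo and RIM hold vesicles at the active zone. NSF with its adaptors NAPA and NAPB takes spent SNARE complexes apart, and dynamin, synaptojanin and SNAP91 retrieve membrane. Granule neurons send these proteins down their mossy fibre axons to CA3, while most of the messenger RNA stays in the cell bodies that a dissection of the dentate gyrus contains.

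Libraries held 26226375 to 43802079 counts. Levels are given in CPM, counts per 1000000 after scaling of each library, and levels of different genes are set side by side only per kilobase of exon. The genotype was checked first. Fndc5 was at 78.9, 69.2, 72.2, 80.3 and 76.1 CPM in wild-type mice 1 to 5 and at 50.9, 45.4, 53.9, 49.7 and 56.7 CPM in knockout mice 1 to 5, so every knockout lay below every wild type (log2 fold change -0.55, SE 0.0569, edgeR adjusted p 0.000495). The summed granule neuron markers reached 2443 to 2823 in wild types and 2614 to 2838 CPM in knockouts, and no gene of the 12 was absent. Wild-type mouse 1 stood apart from the other wild types: it had the lowest granule neuron sum (2443 CPM) and the highest sum of 14 GABAergic interneuron markers (927 CPM, against 792 to 833 CPM in the other wild types and 752 to 818 CPM in knockouts). In bulk tissue, fewer cells of a type and less RNA per cell cannot be told apart.

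The release machinery was abundant. Together the 43 genes summed to 24186 ± 725 in wild types, against 23961 ± 605 CPM in knockouts (mean ± SD, n = 5 each), which is 2.42% and 2.40% of the counts. All 43 passed the low-count filter, and 36 had at least 1000 counts in every library. Per kilobase of exon the levels spanned 1988-fold in wild types, from SNAP25 at 776 ± 63.5 and the complexin gene CPLX2 at 691 ± 14.1 down to UNC13C at 0.577 ± 0.131 and CPLX3 at 0.390 ± 0.0655 CPM per kb. The longest transcript of SNAP25 is longer than the exons used here, so its first place depends on the transcripts chosen.

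**Figure D1:**
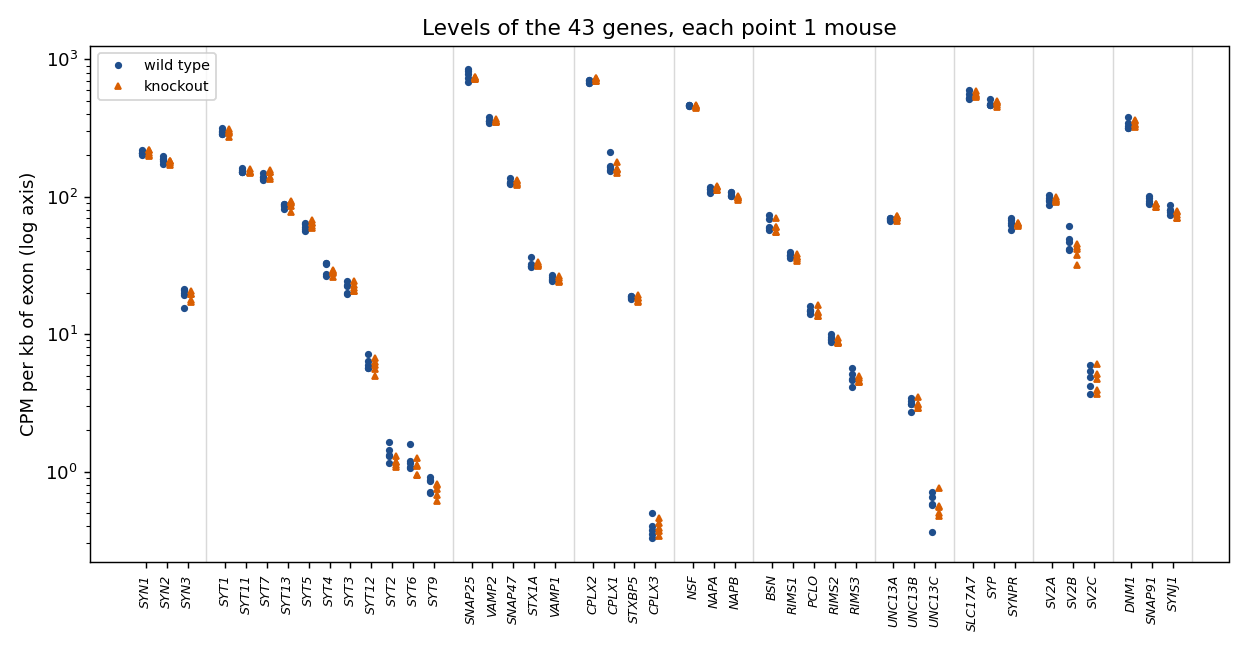
Level of each gene in every mouse as CPM per kb of exon on a log axis, with wild types as circles and knockouts as triangles, and genes ordered within 10 functional classes. Many paralogs within a class differ far more than genotypes do, most widely CPLX2 at 691 against CPLX3 at 0.390 CPM per kb in wild types. Others lie close together, and the wild-type ranges of SYT2 and SYT6 and of NAPA and NAPB overlap.

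Within each family 1 or 2 paralogs held most of the message. Among synaptotagmins the order per kilobase was SYT1 (299 CPM per kb), the main fast calcium sensor, then SYT11 (155), SYT7 (139), SYT13 (86.6), SYT5 (60.4), SYT4 (30.4), SYT3 (21.8), SYT12 (6.18), SYT2 (1.37), SYT6 (1.21) and SYT9 (0.808 CPM per kb). Neighbours in that order had wild-type ranges that did not overlap, except SYT2 and SYT6. SYT7, the sensor of slow and asynchronous release, therefore stood at 17.4% ± 0.854 of the synaptotagmin sum in wild types and at 18.3% ± 0.764 in knockouts (mean ± SD, n = 5 each). UNC13A made up 94.9% ± 0.529 of the 3 priming genes in wild types and 95.1% ± 0.326 in knockouts. CPLX2 exceeded CPLX1 by 4.04-fold per kilobase, UNC13A exceeded UNC13B by 22.0-fold, SYN2 exceeded SYN3 by 9.57-fold and SV2B exceeded SV2C by 9.98-fold. The ranges of NAPA and NAPB, and those of SLC17A7 and SYP, overlapped. SLC17A7, the vesicular glutamate transporter VGLUT1, was at 544 ± 34.8 and the vesicle membrane protein SYP at 477 ± 22.8 CPM per kb.

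The annotated start sites of 34 members could be read from RefSeq (GRCm38.p6) as 44 windows of 250 bases before to 50 after the start. These windows were GC-rich, with a median GC content of 63.7% and 19 CpG dinucleotides, against 52.7% and 7 over the 32851 windows of all genes. Motifs were searched on both strands. The SP1 box GGGGCGGGG lay in 38.6% of the members' windows and in 11.4% of all windows. RE1, the element through which the repressor REST silences neuronal genes in other cells, was searched by its left part TTCAGCACC and its right part GGACAGCGC. The left part was found in the windows of SYN1 and UNC13A, 4.55% of the members' windows against 0.371% of all, and the right part in that of UNC13A, 2.27% against 0.405%. The cAMP response element TGACGTCA, bound by CREB, was found in the windows of SYN1 and NAPA (4.55% against 1.79%), while its shorter core TGACG, which the full element contains, was in 15.9% of the members' windows against 20.8% of all. The EGR box GCGGGGGCG was in those of CPLX1, STXBP5 and SYN2 (6.82% against 2.91%) and overlapped an SP1 box in STXBP5. The letters TATAAA of the TATA box were found among members only in the windows of SV2B (4.55% against 13.6%), there on the strand opposite to the gene, so that the line below reads TTTATA. A match is a run of letters and no evidence of binding. The 250 bases before the starts of SYN1 and SV2B are shown because SYN1 holds both an RE1 part and a cAMP response element, and because SV2B holds these letters and had the lowest genotype estimate of all members. A site of 26 bases just past the start of UNC13A is shown because it holds both RE1 parts. Capitals mark RE1 parts, the cAMP response element and TTTATA, the first 2 lines read 5′ to 3′ on the minus strand, on which both genes lie, and the short UNC13A line reads 5′ to 3′ on the plus strand, opposite to its gene.
SYN1, chrX:20920919-20921168: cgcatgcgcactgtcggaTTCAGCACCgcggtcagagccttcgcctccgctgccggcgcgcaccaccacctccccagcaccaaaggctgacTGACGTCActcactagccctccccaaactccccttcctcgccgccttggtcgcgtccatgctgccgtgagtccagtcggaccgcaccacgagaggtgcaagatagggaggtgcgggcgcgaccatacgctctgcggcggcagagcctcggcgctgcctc
SV2B, chr7:75309263-75309512: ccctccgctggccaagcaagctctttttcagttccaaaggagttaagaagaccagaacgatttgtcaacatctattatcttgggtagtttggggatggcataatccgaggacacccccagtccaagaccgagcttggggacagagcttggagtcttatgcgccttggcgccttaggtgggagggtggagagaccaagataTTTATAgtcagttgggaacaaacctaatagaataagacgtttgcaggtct
UNC13A, chr8:71671727-71671752: TTCAGCACCgggggcgcGGACAGCGC

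No member differed between genotypes past the threshold. Of all 14867 genes tested, 0.00673% (Fndc5 alone) had an edgeR adjusted p under 0.05, and 0 of the 43 members did, with a smallest adjusted p of 0.788 among them. Limma-voom and DESeq2 also called 0 members. At an unadjusted p under 0.05 there were 5 members, all with lower values in the knockout (SNAP91, NAPB, SV2B, SYT2 and SYNJ1), that is 11.6% of the members against 6.29% of all genes, and 3.75% of all genes for the lower and 2.54% for the higher direction. Leaving out wild-type mouse 1 gave 2 such members, 4.65% against 7.08% of all genes in the same fit, and leaving out wild-type mouse 4 gave 9, 20.9% against 7.27%. The number was 8 with wild-type mouse 5 removed (18.6% against 8.13%) and 3 with knockout mouse 3 or 4 removed (6.98% against 4.34% and 5.4%). The libraries of the genotypes did not overlap for 0 members, against 0.895% of all genes (0.437% lower and 0.457% higher).

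The estimates were small and precise. Of the 43 log2 fold changes 32 lay below 0 and 11 above, 74.4% below against 49.3% of all genes. Their median was -0.03, against 0.0016 for all genes tested. With upper-quartile scaling 26 of the 43 lay below 0, and 43.8% of all genes. Without wild-type mouse 1 it was also 26 of the 43, and 49.6% of all genes. For 37 of 43 members, against 74.1% of all genes, the whole 95% interval stayed inside a 1.25-fold change either way, and for all 43 it stayed inside 1.5-fold. The 6 members with wider intervals were SYT2, SYT6, SYT9, CPLX3, UNC13C and SV2B. The wild-type SD was larger than the difference of means for 32 members.

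**Figure D2:**
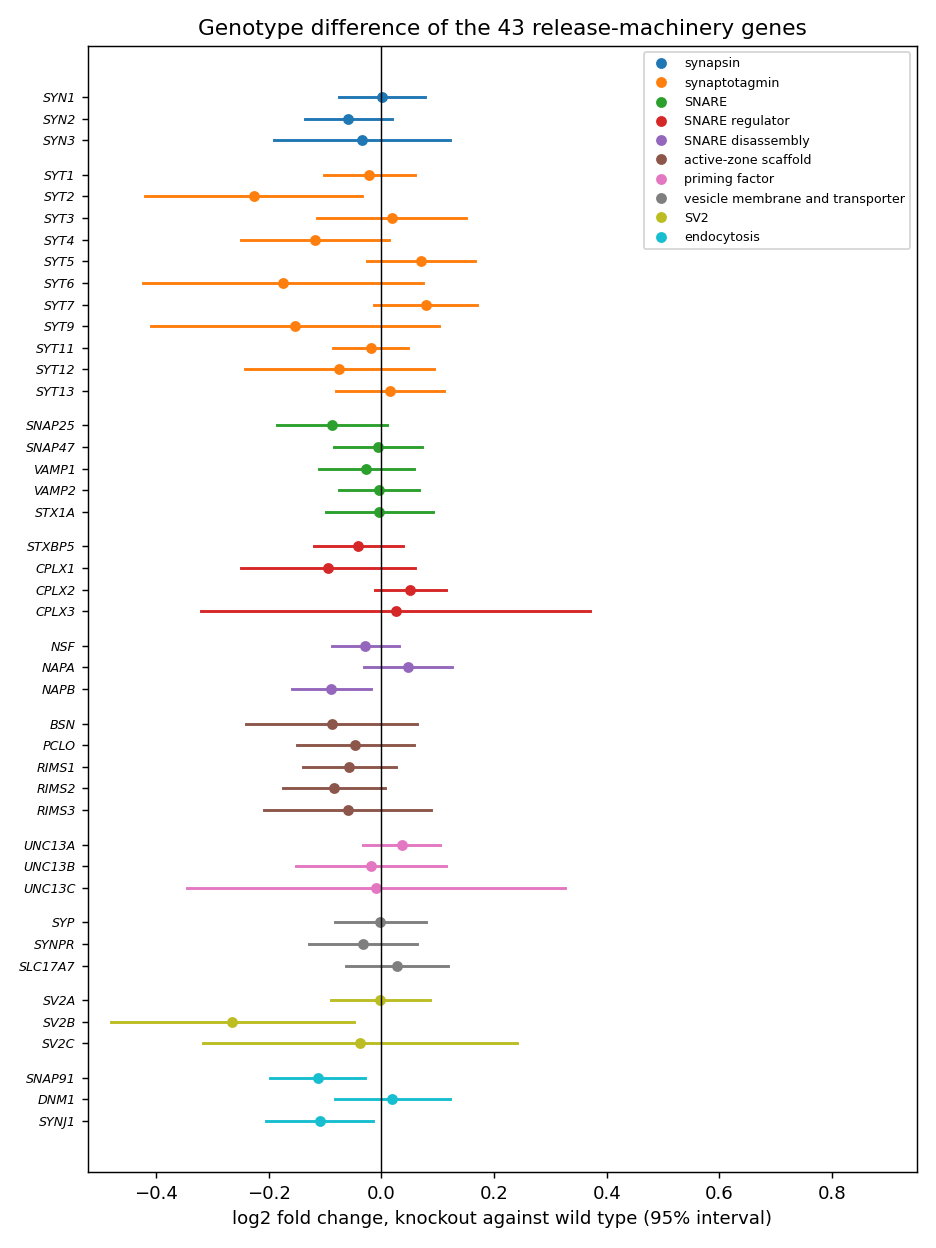
Log2 fold change of each gene in knockouts against wild types, with the 95% interval from the edgeR fit as a line and colours for the 10 classes. Estimates run from -0.26 for SV2B to 0.08 for SYT7, and 5 intervals, all on the negative side, leave out 0.

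The genes of membrane retrieval gave the lowest class median, -0.11 over 3 genes. SNAP91, which encodes the clathrin adaptor AP180 that sizes new vesicles, was at 441, 423, 389, 388 and 402 CPM in wild-type mice 1 to 5 and at 366, 387, 365, 383 and 388 CPM in knockout mice 1 to 5. Of the knockouts 4 lay below every wild type and the highest knockout lay just above the lowest wild type only (log2 fold change -0.11, SE 0.0399, 95% interval -0.20 to -0.03, edgeR adjusted p 0.788, exact two-sided permutation p 0.0159). SYNJ1, the lipid phosphatase that uncoats vesicles, was at 627, 582, 534, 560.3 and 578 in wild types and at 531, 567, 507, 506 and 561 CPM in knockouts. It overlapped between genotypes, with wild-type mouse 1 the highest (log2 fold change -0.11, SE 0.0451, edgeR adjusted p 0.788, exact permutation p 0.0714). DNM1, the neuronal dynamin that cuts vesicles from the membrane, did not share this: it was at 1838, 1539, 1535, 1586 and 1664 in wild types and at 1751, 1561, 1629.9, 1603 and 1730.2 CPM in knockouts. Its groups overlapped throughout (log2 fold change 0.02, 95% interval -0.08 to 0.12).

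Among the genes of SNARE disassembly the adaptors had estimates on opposite sides of 0. NAPB, the neuronal beta-SNAP, was at 477, 478, 447, 458 and 449.6 in wild types and at 432, 447, 430.2, 419 and 443 CPM in knockouts, where 4 of 5 lay below every wild type (log2 fold change -0.09, SE 0.0331, 95% interval -0.16 to -0.02, edgeR adjusted p 0.788, exact permutation p 0.0159). The widely expressed NAPA, alpha-SNAP, was at 283 ± 11.3 in wild types, against 292 ± 10.1 CPM in knockouts (mean ± SD, n = 5 each). NSF, the ATPase itself, had the smallest spread of all members, 0.696% of its mean among wild types. It was at 1758, 1754, 1732, 1734 and 1751 in wild types and at 1712, 1696, 1668, 1717 and 1767 CPM in knockouts, with 4 knockouts below and 1 above every wild type (log2 fold change -0.03, 95% interval -0.09 to 0.03, edgeR adjusted p 0.882).

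All 3 SV2 genes, which encode glycoproteins of the vesicle membrane, had estimates below 0, but of very different size, and SV2A was above 0 with upper-quartile scaling (0.0083). SV2B was at 364, 291, 242, 245 and 277 in wild types and at 254, 246, 190.0, 222 and 269.7 CPM in knockouts. Wild-type mouse 1 was far above the rest, and 2 knockouts lay below every wild type (log2 fold change -0.26, SE 0.102, 95% interval -0.48 to -0.05, edgeR adjusted p 0.788, exact permutation p 0.111). Without wild-type mouse 1 the log2 fold change of SV2B was -0.16. SV2A, the binding site of levetiracetam, was at 445, 402, 378, 407 and 423 in wild types and at 418, 396, 408, 401 and 429 CPM in knockouts. Its groups overlapped and its means were equal to within 1 CPM (log2 fold change -0.0015, 95% interval -0.09 to 0.09). SV2C ranged from 33.8 to 55.1 in wild types and from 34.0 to 56.1 CPM in knockouts. SV2B made up 32.3% ± 2.77 of the SV2 sum per kilobase in wild types and 28.6% ± 2.44 in knockouts (mean ± SD, n = 5 each), with overlapping ranges of 29.7% to 36.7% and 24.7% to 30.6%.

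Synaptotagmin estimates split, 7 of 11 below 0 and 4 above, with a median of -0.02. SYT2, a fast calcium sensor best known from interneurons and the hindbrain, was at 11.8, 9.39, 9.58, 8.36 and 10.4 in wild types and at 8.55, 9.46, 8.45, 8.02 and 7.77 CPM in knockouts. Wild-type mouse 1 was again the highest, 2 knockouts lay below every wild type, and the groups overlapped (log2 fold change -0.23, SE 0.0907, 95% interval -0.42 to -0.04, edgeR adjusted p 0.788, exact permutation p 0.0635). Without wild-type mouse 1 it was -0.15. The sum of the interneuron markers was also highest in wild-type mouse 1, 12 of these 14 genes had estimates below 0 (median -0.10), and their part in the SYT2 value was not tested. SYT4, a synaptotagmin of dense-core vesicles that neuronal activity induces, was at 127, 128, 128, 107 and 102 in wild types and at 113, 115, 101, 108 and 111 CPM in knockouts. Its wild types fell into 3 high and 2 low mice, with the knockouts between or near the low ones (log2 fold change -0.12, SE 0.0621, edgeR adjusted p 0.789, exact permutation p 0.175).

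The synaptotagmins with higher values in the knockout were led by SYT7 and SYT5. SYT7 was at 975, 956, 1005, 1072 and 1003 in wild types and at 1094, 974, 1091, 1008 and 1125 CPM in knockouts. Of the knockouts 3 lay above every wild type and 2 lay among them (log2 fold change 0.08, SE 0.0429, 95% interval -0.01 to 0.17, edgeR adjusted p 0.796, exact permutation p 0.135). SYT5 was at 98.1, 102, 106, 113 and 110.0 in wild types and at 104, 107, 118, 113 and 113 CPM in knockouts, with 1 knockout above every wild type (log2 fold change 0.07, 95% interval -0.03 to 0.17, and 0.04 without wild-type mouse 1). SYT1, the most abundant synaptotagmin, was at 1541, 1459, 1390.1, 1394 and 1423 in wild types and at 1417, 1442, 1323, 1419.6 and 1499 CPM in knockouts. These overlapped widely (log2 fold change -0.02, 95% interval -0.10 to 0.06).

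**Figure D3:**
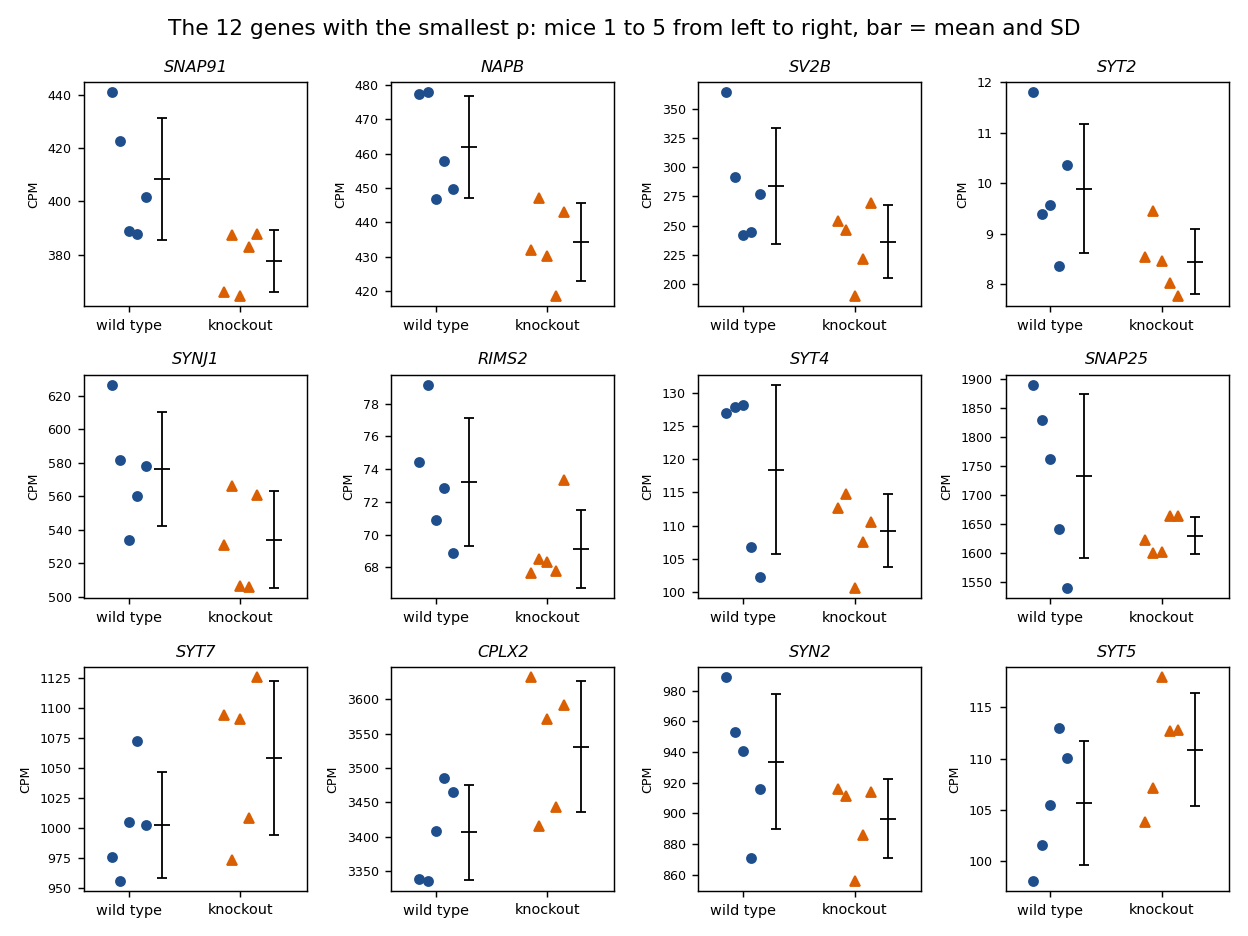
CPM of the 12 members with the smallest unadjusted p, in wild types (circles) and knockouts (triangles), mice 1 to 5 from left to right, with mean and SD as a bar and axes that do not start at 0. Every panel has at least 1 knockout within the wild-type range, and wild-type mouse 1 is the highest library in SNAP91, SV2B, SYT2, SYNJ1, SNAP25 and SYN2.

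The SNARE genes sat nearer to 0 than the SV2 genes or the active-zone scaffolds, with a median of -0.0059 over 5 genes, all 5 below 0 as scaled here but 2 of 5 with upper-quartile scaling. SNAP25 was at 1890.2, 1830.2, 1763, 1642 and 1539.8 in wild types and at 1622, 1599.7, 1602, 1664 and 1665 CPM in knockouts. The 5 knockouts were tightly grouped (SD 32.3 CPM, against 142 CPM in wild types) inside the wild-type range (log2 fold change -0.09, SE 0.0464, 95% interval -0.19 to 0.01, edgeR adjusted p 0.789, exact permutation p 0.159). Corrected for GC content and length, the log2 fold change was -0.01 for SNAP25, -0.0070 for VAMP1, -0.03 for VAMP2 and SNAP47 and -0.04 for STX1A. The correction used the longest transcript, which for SNAP25 and VAMP1 is longer than the exons behind the levels per kilobase. As counted, the other 4 lay between -0.03 and -0.0038: VAMP2 was at 1011 ± 39.1 and 1009 ± 26.2 CPM, in wild types and knockouts, and STX1A was at 70.1 ± 4.68 and 70.0 ± 1.74 CPM. VAMP1, the synaptobrevin that prevails in the spinal cord and in some interneurons, was at 104 ± 4.18 and 102 ± 4.36 CPM, and SNAP47 was at 244 ± 9.62 and 243 ± 8.64 CPM (mean ± SD, n = 5 each).

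Regulators of the SNARE complex split evenly, 2 below 0 and 2 above. CPLX2, the principal complexin of excitatory forebrain neurons, was at 3338, 3336, 3408, 3485 and 3465 in wild types and at 3632, 3416, 3571, 3443 and 3592 CPM in knockouts. All 5 knockouts lay above the wild-type mean, the only member for which they did, and 3 lay above every wild type (log2 fold change 0.05, SE 0.0297, 95% interval -0.01 to 0.11, edgeR adjusted p 0.800, exact permutation p 0.0635). Its paralog CPLX1, more typical of inhibitory neurons, was at 374 ± 52.5 in wild types, against 351 ± 23.4 CPM in knockouts, with wild-type mouse 1 at 466 and the other wild types at 337 to 366 CPM. Tomosyn, STXBP5, which holds syntaxin out of the complex, was at 171 ± 3.68 and 167 ± 7.82 CPM. CPLX3, a complexin of the retina and of a few cortical neurons, stayed between 0.966 and 1.47 CPM in all 10 mice, on counts as low as 26 in a library.

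The 5 active-zone scaffolds all had estimates below 0, between -0.09 and -0.05, with a median of -0.06. Without wild-type mouse 1 it was 4 of 5, with RIMS3 at 0.0040. RIMS2 was at 74.5, 79.1, 70.9, 72.8 and 68.9 in wild types and at 67.6, 68.5, 68.4, 67.8 and 73.4 CPM in knockouts. Of the knockouts 4 lay below every wild type while knockout mouse 5 lay among the higher wild types (log2 fold change -0.08, SE 0.0426, 95% interval -0.17 to 0.01, edgeR adjusted p 0.789, exact permutation p 0.0714), and without wild-type mouse 2 the value was -0.05. BSN, which encodes Bassoon, was at 1172, 961, 951, 912 and 1099 in wild types and at 953, 955, 880.2, 882 and 1124 CPM in knockouts. Wild-type mice 1 and 5 and knockout mouse 5 formed the high end, and without wild-type mouse 1 the log2 fold change went from -0.09 to -0.03. PCLO, its relative Piccolo, was at 329 ± 15.4 and 319 ± 24.9 CPM, RIMS1 at 258 ± 9.30 and 248 ± 11.6 CPM and RIMS3, a short RIM without the zinc finger, at 32.7 ± 3.93 and 31.3 ± 1.37 in wild types and knockouts (mean ± SD, n = 5 each).

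Priming factors lay around 0, with a median of -0.0091, 2 of 3 below 0 as counted and 0 of 3 after the GC and length correction. UNC13A, the main Munc13 of glutamatergic synapses, was at 693, 693, 711, 721 and 727 in wild types and at 692, 721, 724, 749 and 749 CPM in knockouts. The knockouts spanned the wild-type range and went past it at both ends (log2 fold change 0.04, SE 0.0321, 95% interval -0.03 to 0.10, edgeR adjusted p 0.863). UNC13B was at 55.0 ± 4.89 and 54.3 ± 4.18 CPM. UNC13C, known chiefly from cerebellar granule cells, was at 3.19, 6.22, 5.14, 5.05 and 5.76 in wild types and at 4.39, 6.70, 4.96, 4.85 and 4.16 CPM in knockouts, the widest relative spread of any member (22.7% of the mean among wild types). Its lowest library was wild-type mouse 1 and its highest knockout mouse 2, as for SV2C.

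Synapsins, which tether vesicles in the reserve pool, were close to equal. SYN1 was at 719.9, 666, 684, 689.5 and 691 in wild types and at 723, 669.9, 688, 651 and 721 CPM in knockouts, with knockouts past the wild-type range at both ends (log2 fold change 0.0006, 95% interval -0.08 to 0.08). SYN2 was at 989, 953, 941, 871 and 916 in wild types and at 916, 911, 856, 886 and 914 CPM in knockouts. All 5 knockouts lay below its wild-type mean and 1 below every wild type (log2 fold change -0.06, SE 0.0363, 95% interval -0.14 to 0.02, edgeR adjusted p 0.800, exact permutation p 0.151). Of the genes of the vesicle membrane, SLC17A7 was at 1793, 1531, 1577, 1572 and 1662 in wild types and at 1769, 1611, 1645, 1593 and 1679 CPM in knockouts. All its knockouts lay inside the wild-type range (log2 fold change 0.03, 95% interval -0.06 to 0.12), and the value was 0.0044 without knockout mouse 1 and 0.07 without wild-type mouse 1. SYP was at 1237 ± 58.9 and 1235 ± 48.9 CPM, and SYNPR, a synaptophysin relative enriched in mossy fibre terminals, was at 256 ± 19.3 and 250.1 ± 4.62 in wild types and knockouts (mean ± SD, n = 5 each).

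Differences between single mice were larger than those between genotypes for several members. Wild-type mouse 1 was the highest of the 10 libraries for 22 of 43 members and the lowest for 6. Knockout mouse 3 was the lowest for 9 and knockout mouse 4 for 7. Among wild types the SD was a median of 5.90% of the mean, and for the 38 members with a mean of at least 20 CPM it was 5.48%, against 5.2% over the 7721 genes of that level. The members with the widest spread after UNC13C were SV2C (19.1%), SYT6 (17.5%), SV2B (17.5%) and CPLX3 (16.8%). SYT6 was at 9.03 CPM in wild-type mouse 1 and at 6.03 to 6.80 CPM in the other wild types.

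**Figure D4:**
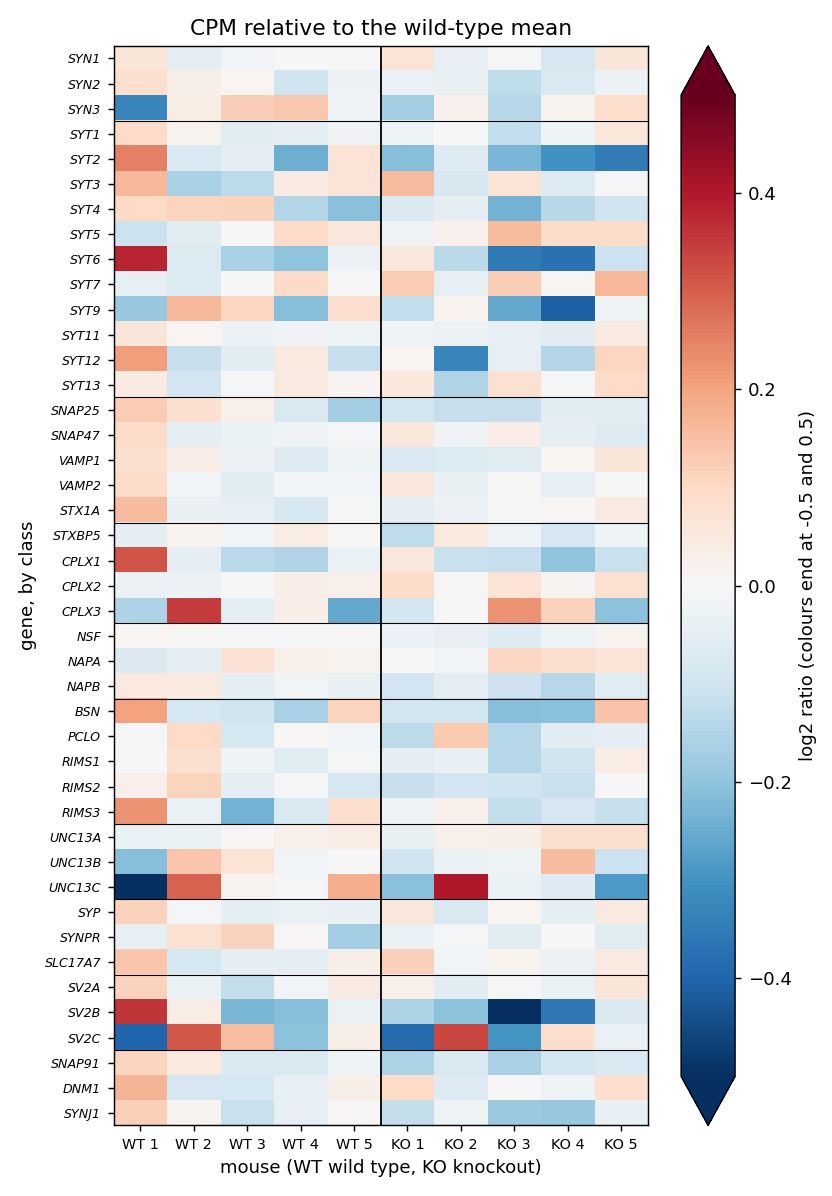
Log2 ratio of each library to the wild-type mean for all 43 genes, by class, with colours ending at -0.5 and 0.5. Wild-type mouse 1 is high for SV2B, SYT6, CPLX1, SYT2 and BSN and low for UNC13C, SV2C and SYN3, and no class shows a block that follows genotype.

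The sign of a member's estimate differed with the base composition of its transcript. All 21 members with a GC content under 50% in their longest transcript had estimates below 0 (median -0.04), against 11 of the 22 members at 50% or more (median -0.0005). The same held over the whole table, where 64.1% of 7514 genes under 50% GC and 33.7% of 7209 genes at 50% or more lay below 0. With libraries corrected for GC content and length, 15 of 21 and 15 of 22 members lay below 0, with medians of -0.02 in both sets, and 48.6% and 47.2% of all genes did. SV2B (-0.25), SYT2 (-0.23) and SNAP91 (-0.08) kept their sign under the correction, SYNJ1 was at -0.09, NAPB at -0.06 and SYT4 at -0.06, and 4 members were at an unadjusted p under 0.05, 9.3% against 4.41% of all genes in that fit.

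**Figure D5:**
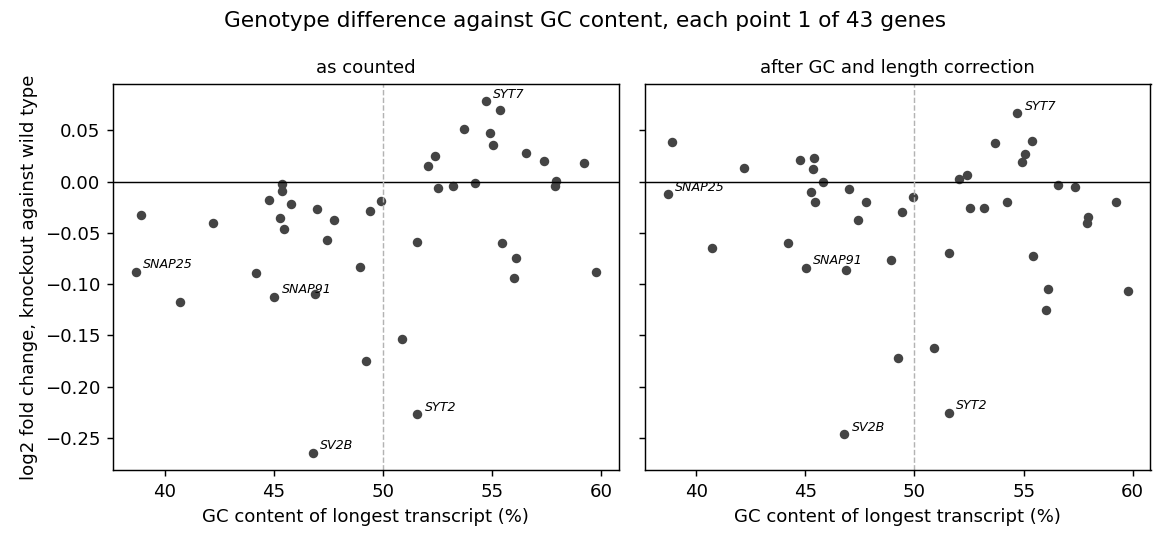
Log2 fold change of each of the 43 members against the GC content of its longest transcript, as counted (left) and with libraries corrected for GC content and length (right), with a dashed line at 50%. On the left all 21 members under 50% lie below 0, and on the right 15 of them do.

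Another 76 genes of the release pathway, taken from a list of further SNAREs, active-zone, vesicle and endocytosis proteins, gave 75 tested genes, of which 0 passed the threshold. Their estimates were below 0 for 47 and above for 28 (median -0.02). At an unadjusted p under 0.05 there were 7 lower and 5 higher, 16% against 6.29% of all genes. By smallest p the higher values began with STXBP2, a Munc18 protein of secretory and immune cells, at 36.7 ± 1.93 in wild types, against 42.1 ± 3.39 CPM in knockouts (log2 fold change 0.20, SE 0.0564, edgeR adjusted p 0.788, exact permutation p 0.0238). The syntaxin gene STX2 had 33.5 ± 3.08 CPM in the wild types, 37.7 ± 1.05 CPM in the knockouts and a log2 fold change of 0.17 (SE 0.0571). By smallest p the lower values began with CLTC, the clathrin heavy chain, whose means of 511 ± 20.1 and 470.4 ± 17.6 CPM gave a log2 fold change of -0.12 (SE 0.0365, edgeR adjusted p 0.788), and with CADPS, the priming factor of dense-core vesicles, whose means of 306 ± 15.8 and 282 ± 11.5 CPM gave a log2 fold change of -0.12 (SE 0.0409). The clathrin partner EPS15 was at -0.15 and VAMP7, a SNARE of late endosomes, at -0.17 on the log2 scale. Corrected for GC content and length, CLTC was at -0.08 and EPS15 at -0.09. All 6 had an edgeR adjusted p of 0.788. Libraries of the genotypes did not overlap for 1 of the 75 genes, SYNGR2, against 0.895% of all genes. SYNGR2, which encodes a synaptogyrin found widely outside neurons and is named after its values were seen, was at 4.54 ± 0.277 and 5.14 ± 0.224 CPM, with all 5 knockouts above every wild type (log2 fold change 0.18, SE 0.0845, edgeR adjusted p 0.788, exact permutation p 0.00794).

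Markers of other cells in the dissection overlapped between genotypes in every list given here. Summed CA2 and CA3 markers were at 779 to 839.6 in wild types and 752 to 804 CPM in knockouts, and CA1 markers at 74.3 to 89.6 and 74.8 to 87.7 CPM. Hilar mossy cell markers were at 39.5 to 62.0 and 26.2 to 58.8 CPM, and thalamus and habenula markers at 67.8 to 75.9 and 68.8 to 88.4 CPM. Oligodendrocyte markers were at 1418 to 1645 and 1407 to 1765 CPM, astrocyte markers at 4579 to 5396 and 4306 to 5517 CPM, microglia markers at 181 to 208 and 175 to 210.0 CPM and choroid plexus markers at 31.1 to 37.7 and 32.04 to 40.7 CPM. None of these lists had a gene at 0 in every library, but POU4F1, FOLR1 and KCNE2 did not pass the low-count filter. Some sums rest mostly on a single gene. In wild types KL averaged 29.2 CPM of the choroid plexus sum and SLC1A2 3544 CPM of the astrocyte sum. CALB2, which is also among the interneuron markers, averaged 39.9 CPM of the mossy cell sum. The part of these lists in the members' values was not tested.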

How the data were processed

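RNA of 10 dentate gyri was sequenced as stranded poly(A) libraries from 500 ng of total RNA with single-end reads of 75 bases, per the labels' protocols. The deposited table holds raw counts per gene symbol made by the authors. STAR 2.5.1b, Cufflinks 2.2.1 and mm10 are named, per the submitters' processing notes. For the strand setting and multi-mapped reads nothing is given in the sources used here. Of 43 members 10 share exon sequence with a gene on the opposite strand, so their counts are uncertain. They are SYN1 (with Araf), SYN2 (with Timp4), SYT4, SYT6, SYT7, SYT12, PCLO, UNC13A, SYP and SV2B, and so include the lowest and the highest estimate. BSN overlaps a gene on the same strand, Gm47303. Of the members 39 have no 75-base window in a transcript of another gene.

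Groups follow the titles, and libraries of a genotype differed beyond sampling noise (chi-square per degree of freedom at least 4.66). No label says that mice came from separate litters. Genes were filtered with filterByExpr (14867 kept), scaled by TMM and compared with edgeR 4.0.16 (glmQLFit, glmQLFTest; R 4.3.3), with Benjamini-Hochberg adjustment over all genes and a threshold of 0.05. Unadjusted p-values in counts are from the same fit. Single values were compared by exact two-sided permutation of log2(CPM + 0.5) over 252 assignments, smallest p 0.00794. Exon lengths and GC content are from GENCODE M21 (GRCm38), which matched 24490 of 24982 symbols. Exon lengths are of its basic transcripts, while GC content and the length used in the correction are of the longest of all transcripts. The 2 sources can differ: SNAP25 had 2234 bases of exon, but its longest transcript held 4806 different windows of 75 bases. The longest transcript also exceeded the exon length for VAMP1, SNAP91, SYP, SYNPR and SLC17A7, so levels per kilobase depend on this choice. The members and lists were chosen with earlier results of these data known. Full library values are given for the 12 members with the smallest p and for the member of each class with the highest level per kilobase, and the 6 other pathway genes with the smallest p are named; other genes given singly were chosen after their values were seen. Simulated counts of this comparison covered 14802 tested genes. Recovered were 64.5% of 62 genes changed by 1.25-fold, 82.8% of 64 changed by 1.5-fold and 93.1% of 72 changed by 2-fold. There 14 unchanged genes were called as well. Many genes changed at once in the simulation, which eases the adjusted threshold, so these rates are too high for a gene that changes alone. Alternatives were DESeq2 1.42.0, limma-voom 3.58.1, upper-quartile scaling, other filters, a replicate block, single libraries left out, and spline corrections for GC content and length (4 degrees of freedom each). Removal of the ribosomal RNA precursor was added after seeing the data.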

Additional observations from a re-analysis of the deposited data

Results flagged for a closer look

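Of 100 groups of 5 libraries checked for a value far from the rest, 8 were found, against about 5 by chance, since chance gives about 1 in 20. In 6 of them the library was wild-type mouse 1, which also stood apart in its interneuron and granule neuron markers. It was at 9.03 CPM for SYT6 (other wild types 6.03 to 6.80), at 261 CPM for SNAP47 (237 to 243), at 1078 CPM for VAMP2 (974 to 1002), at 78.2 CPM for STX1A (66.3 to 69.8), at 466 CPM for CPLX1 (337 to 366) and at 1341 CPM for SYP (1200.1 to 1230.4). RIMS2 was at 73.4 CPM in knockout mouse 5, with the other knockouts at 67.6 to 68.5 CPM. EPS15 was at 229 CPM in wild-type mouse 2, with the other wild types at 196 to 203 CPM.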

How the results depend on the processing

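No member passed the threshold under any of the 18 alternatives, where the lowest adjusted p was 0.0819 (SV2B, with the mouse number as a replicate block). The number of genes past it over the whole table was 1, 3 with DESeq2, 8 with the replicate block and between 1 and 3 when each library was omitted in turn (3 when wild-type mouse 1 was omitted, 2 when knockout mouse 2 was). Members at an unadjusted p under 0.05 numbered 5, all lower. With the replicate block they numbered 11 (10 lower), 25.6% of the members against 10% of all genes in that fit. With single libraries left out they were 2 to 9, and 2 to 8 counting lower ones, with 3.72% to 8.27% of all genes in the same fits. Same-numbered mice correlated at 0.209, 0.204, 0.108, 0.00901 and 0.0282. Of 10 mice 6 correlated best with their own number, a hint of pairing from the data. The library descriptions carry the same date stamp for all 10 and number same-numbered mice consecutively, wild type first. No label calls such mice a pair or names a shared litter. Since 2 of the 5 correlations were under 0.1 and no label states a pairing, the mice were treated as unpaired. The median of the members stayed between -0.040 and -0.016. Of 43 members 19 stayed below 0 and 5 above 0 in every alternative, and 19 turned sign in at least 1. Among the 20 members named by rule 5 turned. SYN1 turned with the replicate block (-0.00012), limma-voom (-0.00038) and the GC and length correction (-0.035), and ran from -0.016 to 0.020 with single libraries left out. SYT1 turned with that correction (7.6e-05) and ran from -0.041 to 0.0038, and SV2A turned with upper-quartile scaling (0.0083) and limma-voom (0.00078) and ran from -0.030 to 0.029. The correction also turned SLC17A7 (-0.0036) and DNM1 (-0.0055), and DNM1 ran from -0.0015 to 0.066. Of the other 23 members 14 turned in some alternative, among them UNC13C with upper-quartile scaling (0.00087), limma-voom (0.014) and the correction (0.023). The cause of these changes was not tested. SNAP25 was at -0.05 and SYN2 at -0.04 without wild-type mouse 1. The intervals of 6 members reach past 1.25-fold: 5 are the members with the lowest levels (CPLX3, SYT9, UNC13C, SYT6 and SYT2, with at least 26 to 202 counts in a library), and the other is SV2B, with at least 6584 counts.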
